A study of Mus musculus with 47 samples.

Results

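The regions described here are constant distal enhancers of mouse liver, chosen by 2 histone marks and by position. A region is a peak of acetylated histone H3 lysine 27 (H3K27ac) called in control male liver, on an autosome, that overlaps by at least 1 bp a peak in each of the other 3 H3K27ac lists and in each of the 4 lists of monomethylated histone H3 lysine 4 (H3K4me1), and that lies more than 5 kb from the start of every protein-coding gene. Of the 28862 autosomal H3K27ac peaks of control male liver, 5040 (17.5%) met the rule. The presence of both marks in every list is therefore how the regions were selected and is not a finding about them. The name rests on marks and position, and enhancer activity was not measured.

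The livers came from male and female mice of 7 weeks. Control mice were floxed for Ezh2 (Ezh2 f/f). The knockout mice, called E1/E2-KO (KO below, DKO in the sample labels, Ezh1-/-, EZH2f/f, AC+), lacked Ezh1 in every cell and carried an albumin-Cre transgene that deletes Ezh2 in hepatocytes, so that other liver cells keep Ezh2. Whole liver was used, 4 livers for each group and mark except 3 in the labels for H3K4me1 of KO female liver. Each of the 12 lists was called once on pooled livers, so there is no replicate error and no test between groups could be made. The 95% Wilson intervals given reflect counting error alone, and they take each peak as independent of its neighbours.

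Enhancers are stretches of DNA, often far from a promoter, where transcription factors bind and raise the transcription of a gene on the same chromosome. Active enhancers carry H3K27ac and H3K4me1 on the nucleosomes beside the bound factors, and H3K4me1 is also found at enhancers that are not active. EZH1 and EZH2 are the enzymes of Polycomb repressive complex PRC2, which trimethylate the same lysine 27 (H3K27me3) over broad repressed domains, and a lysine can carry the acetyl or the methyl mark but not both at once. In hepatocytes, enhancers are known to be bound by factors such as HNF4A, FOXA, C/EBP, HNF1 and HNF6.

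The 4 autosomal H3K27ac lists held 28862 to 55055 peaks, and the control male list was the shortest. The 4 H3K4me1 lists held 50922 to 68838 peaks. The 4 H3K27me3 lists held 14554 to 17188 regions, which covered 25.5% to 31.0% of the autosomes. The lists carry no score or read count, and the read depth behind them is unknown, so each value below says whether a mark was called and over what width, with nothing on its strength.

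The step that removed most distal peaks was H3K4me1. Of the 15883 control male H3K27ac peaks that were distal, 11341 (71.4%) were called in all 4 H3K27ac lists. The H3K4me1 lists overlapped 71.2% of the distal peaks in males of the control group, 58.0% in control female, 63.5% in KO male and 49.6% in KO female liver. Among the 11341 distal peaks with H3K27ac in all lists, 5040 (44.4%) had H3K4me1 in 4 lists, 2039 in 3 lists and 1696 in none. At the distance threshold, the nearest peaks just outside lay 4988 and 4994 bp from a gene start and the nearest just inside lay 5012 and 5014 bp away, with 96 peaks in the kilobase outside and 101 in the kilobase inside.

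To show what such a region is in sequence, the central 300 bp of the widest enhancer near each of the 6 genes with most enhancers are printed, with that of the widest enhancer among the 10 genes that lead the set under H3K27me3 in all 4 lists, nearest to the start of Banp (a nuclear matrix DNA-binding protein). Sequences are the plus strand of mm9 (NCBIM37), 5′ to 3′, and capitals mark every match, on either strand, to 14 motifs. Those of 8 letters or more were HNF4A (CAAAGTCCA), C/EBP in its forms TTGCGCAA and TTGTGCAA, HNF1 (half-site GTTAATNAT), STAT5 (TTCNNNGAA) and ETS (CCGGAAGT). The shorter ones are spelled out with their shares below. The windows are chr16:13189775-13190074 in front of Mkl2, chr13:102737120-102737419 in front of Pik3r1, chr16:43046407-43046706 in an intron of Zbtb20, chr4:144589085-144589384 in an intron of Vps13d, chr1:93799782-93800081 downstream of Hdac4, chr16:24255448-24255747 in front of Lpp and chr8:124570607-124570906 beyond the end of Banp, in an intron of the very long gene model Gm20388.
Mkl2: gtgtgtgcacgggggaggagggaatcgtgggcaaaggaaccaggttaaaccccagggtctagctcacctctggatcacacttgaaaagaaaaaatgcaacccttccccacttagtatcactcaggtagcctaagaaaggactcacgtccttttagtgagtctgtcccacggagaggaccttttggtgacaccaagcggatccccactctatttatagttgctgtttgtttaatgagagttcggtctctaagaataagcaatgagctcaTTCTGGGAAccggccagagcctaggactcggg
Pik3r1: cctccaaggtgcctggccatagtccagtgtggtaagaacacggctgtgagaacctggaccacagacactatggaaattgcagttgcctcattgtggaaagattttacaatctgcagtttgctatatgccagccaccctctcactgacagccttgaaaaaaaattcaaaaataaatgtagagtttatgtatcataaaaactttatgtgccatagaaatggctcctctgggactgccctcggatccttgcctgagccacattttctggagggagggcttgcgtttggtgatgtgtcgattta
Zbtb20: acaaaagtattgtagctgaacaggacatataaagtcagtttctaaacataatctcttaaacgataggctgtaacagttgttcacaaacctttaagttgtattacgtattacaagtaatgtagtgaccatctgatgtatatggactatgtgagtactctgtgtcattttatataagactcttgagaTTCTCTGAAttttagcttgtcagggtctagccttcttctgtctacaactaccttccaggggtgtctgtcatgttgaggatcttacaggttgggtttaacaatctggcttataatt
Vps13d: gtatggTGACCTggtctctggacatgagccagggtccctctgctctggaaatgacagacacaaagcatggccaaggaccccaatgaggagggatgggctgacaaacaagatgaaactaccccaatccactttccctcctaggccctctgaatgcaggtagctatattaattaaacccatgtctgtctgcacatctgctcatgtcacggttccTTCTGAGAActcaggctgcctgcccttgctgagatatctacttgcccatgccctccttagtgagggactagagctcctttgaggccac
Hdac4: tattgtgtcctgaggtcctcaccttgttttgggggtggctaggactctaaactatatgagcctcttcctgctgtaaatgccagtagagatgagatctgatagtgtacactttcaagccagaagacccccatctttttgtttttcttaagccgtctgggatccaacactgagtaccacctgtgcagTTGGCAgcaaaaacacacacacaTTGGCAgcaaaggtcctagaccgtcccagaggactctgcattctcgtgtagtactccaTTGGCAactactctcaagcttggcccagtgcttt
Lpp: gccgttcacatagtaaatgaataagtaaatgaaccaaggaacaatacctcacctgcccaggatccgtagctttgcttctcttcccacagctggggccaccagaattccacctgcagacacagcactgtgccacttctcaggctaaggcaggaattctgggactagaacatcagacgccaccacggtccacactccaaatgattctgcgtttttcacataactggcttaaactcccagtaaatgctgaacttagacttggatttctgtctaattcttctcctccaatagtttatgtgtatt
Banp: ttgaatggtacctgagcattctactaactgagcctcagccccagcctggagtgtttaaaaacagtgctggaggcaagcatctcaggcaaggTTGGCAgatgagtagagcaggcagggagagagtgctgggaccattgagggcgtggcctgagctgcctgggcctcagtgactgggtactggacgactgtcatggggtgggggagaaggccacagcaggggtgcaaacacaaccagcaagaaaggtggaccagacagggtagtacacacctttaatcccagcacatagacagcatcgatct
These windows held few matches. The Mkl2 and Zbtb20 windows each held 1 STAT5 match, and the Vps13d window a nuclear receptor hexamer and a STAT5 match. The Hdac4 window held 3 matches to the NFI half-site and the Banp window 1. The Pik3r1 and Lpp windows held none.

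Over all 5040 enhancers the centres were richer in G and C, and in CpG, than the autosomes and poorer in both than constant peaks near gene starts. Median GC content of the central 300 bp was 49.3%, against 42.0% over 7978600 windows of 300 bp across the autosomes and 59.7% at the 3022 peaks that were in all 8 lists but within 5 kb of a gene start. The CpG observed to expected ratio had a median of 0.199, above the 0.152 of autosomal windows, close to the 0.202 of the 10843 distal peaks that failed the rule and below the 0.654 of the constant peaks near gene starts. The SP1 motif GGGCGG, common in CpG-rich promoters, was in 7.18% of enhancer centres (6.5 to 7.93), in 21.5% of all control male H3K27ac peaks and in 2.94% of autosomal windows.

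At the centres, several motifs of liver factors, though not HNF4A, were no more frequent than in autosomal windows but more frequent than in all control male H3K27ac peaks. The HNF4A motif was more frequent than in autosomal windows, in 0.774% of the enhancer centres (39 of 5040, interval 0.567 to 1.06) against 0.390%. The FOXA motif TGTTTAC was in 4.54% against 4.48%. The HNF6 motif ATTGATT was in 2.40% (2.01 to 2.86) against 5.00%. Of the other motifs with higher shares, the nuclear receptor hexamer AGGTCA was in 22.4% of centres against 16.3% of windows. For the NFI half-site TTGGCA these shares were 16.4% and 14.4%, and for the E-box CACGTG 4.74% and 2.99%. STAT5 was in 9.29% against 11%. For the AP-1 motif TGANTCA the shares were 9.07% and 8.87%, and for the GATA motif AGATAA 14.0% and 19.1%. The C/EBP forms TTGCGCAA and TTGTGCAA were in 0.0595% and 0.754% of centres and in 0.0246% and 0.928% of windows, HNF1 in 0.933% and 1.07%, and ETS in 0.774% and 0.188%. In all control male H3K27ac peaks, which include those near gene starts, the shares were lower than at the enhancers for HNF4A (0.537%), HNF1 (0.620%), HNF6 (1.94%), FOXA (3.66%), STAT5 (7.87%) and GATA (11.2%). At the distal peaks that failed the rule they were close to those of the enhancers, with 0.682% for HNF4A, 0.858% for HNF1, 2.81% for HNF6 and 4.59% for FOXA. A match is a description of the letters and not evidence of binding.

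Several motifs were more frequent beside the enhancers, in the short gaps between neighbouring H3K27ac peaks. There were 1428 gaps under 1 kb with an enhancer on at least 1 side and another control male H3K27ac peak on the other, and 300 bp windows on their centres were examined after the values at the enhancer centres had been seen. The HNF4A motif was in 3.57% of the gap windows (51 of 1428, interval 2.73 to 4.67), which is 4.62 times its share at enhancer centres. TTGTGCAA was in 3.29% of gap windows (2.48 to 4.35) against 0.754% of enhancer centres, the HNF1 motif in 3.50% (2.67 to 4.59) against 0.933%, HNF6 in 7.14% (5.92 to 8.60) against 2.40% and FOXA in 8.26% (6.94 to 9.81) against 4.54%. Shares were also higher for the nuclear receptor hexamer (31.3% against 22.4%), NFI (23.3% against 16.4%), GATA (17.2% against 14.0%), SP1 (9.17% against 7.18%) and the E-box (6.37% against 4.74%). ETS was lower, with 0.420% (0.193 to 0.914) against 0.774%. AP-1 changed little, with 10.4% (8.89 to 12.1) against 9.07%, and STAT5 was in 11.4% (9.87 to 13.2) against 9.29%. The same was seen at the 1460 gaps between distal peaks that failed the rule, where HNF4A was in 2.88% (2.14 to 3.87) and FOXA in 7.47%, so a high share at gaps was also found away from the constant enhancers. HNF6 was lower there, with 4.66% (3.69 to 5.86). Relative to autosomal windows, the share at gaps beside an enhancer was 1.04 times for STAT5 and 0.897 times for GATA. It was 1.17 to 9.16 times for the other motifs. Median GC content was 46.7% in the windows at gaps beside an enhancer and 49.3% at enhancer centres. The part of GC content in these shares was not tested.

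Gap windows at 3 genes are printed as examples. They are the first 3 of the genes with most enhancers that had a pair of enhancers under 1 kb apart, at chr16:13190494-13190793 (gap of 509 bp), chr13:102737708-102738007 (359 bp) and chr1:93800231-93800530 (266 bp). The windows are centred on the gaps and reach into the peaks where a gap is shorter. Capitals mark the same 14 motifs.
Mkl2 gap: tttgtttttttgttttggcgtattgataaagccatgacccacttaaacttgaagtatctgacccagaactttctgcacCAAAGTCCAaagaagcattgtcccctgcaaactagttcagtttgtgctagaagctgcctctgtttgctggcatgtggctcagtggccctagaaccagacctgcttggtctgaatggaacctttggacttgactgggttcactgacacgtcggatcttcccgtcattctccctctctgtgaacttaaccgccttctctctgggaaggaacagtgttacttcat
Pik3r1 gap: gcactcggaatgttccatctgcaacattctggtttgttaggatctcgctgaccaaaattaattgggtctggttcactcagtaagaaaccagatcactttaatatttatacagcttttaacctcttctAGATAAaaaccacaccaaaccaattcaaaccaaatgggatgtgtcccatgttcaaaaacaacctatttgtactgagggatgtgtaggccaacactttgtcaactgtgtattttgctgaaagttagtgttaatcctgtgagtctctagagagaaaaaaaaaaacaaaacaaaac
Hdac4 gap: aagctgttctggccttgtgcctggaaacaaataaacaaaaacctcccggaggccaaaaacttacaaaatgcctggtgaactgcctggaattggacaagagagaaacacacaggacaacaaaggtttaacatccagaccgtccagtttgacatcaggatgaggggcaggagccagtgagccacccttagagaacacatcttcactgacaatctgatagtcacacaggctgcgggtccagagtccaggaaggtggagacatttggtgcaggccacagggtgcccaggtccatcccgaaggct
The Mkl2 gap holds a full HNF4A motif at positions 79 to 87 of the window. The Pik3r1 gap holds a GATA match and the Hdac4 gap none of the 14 motifs.

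**Figure D1:**
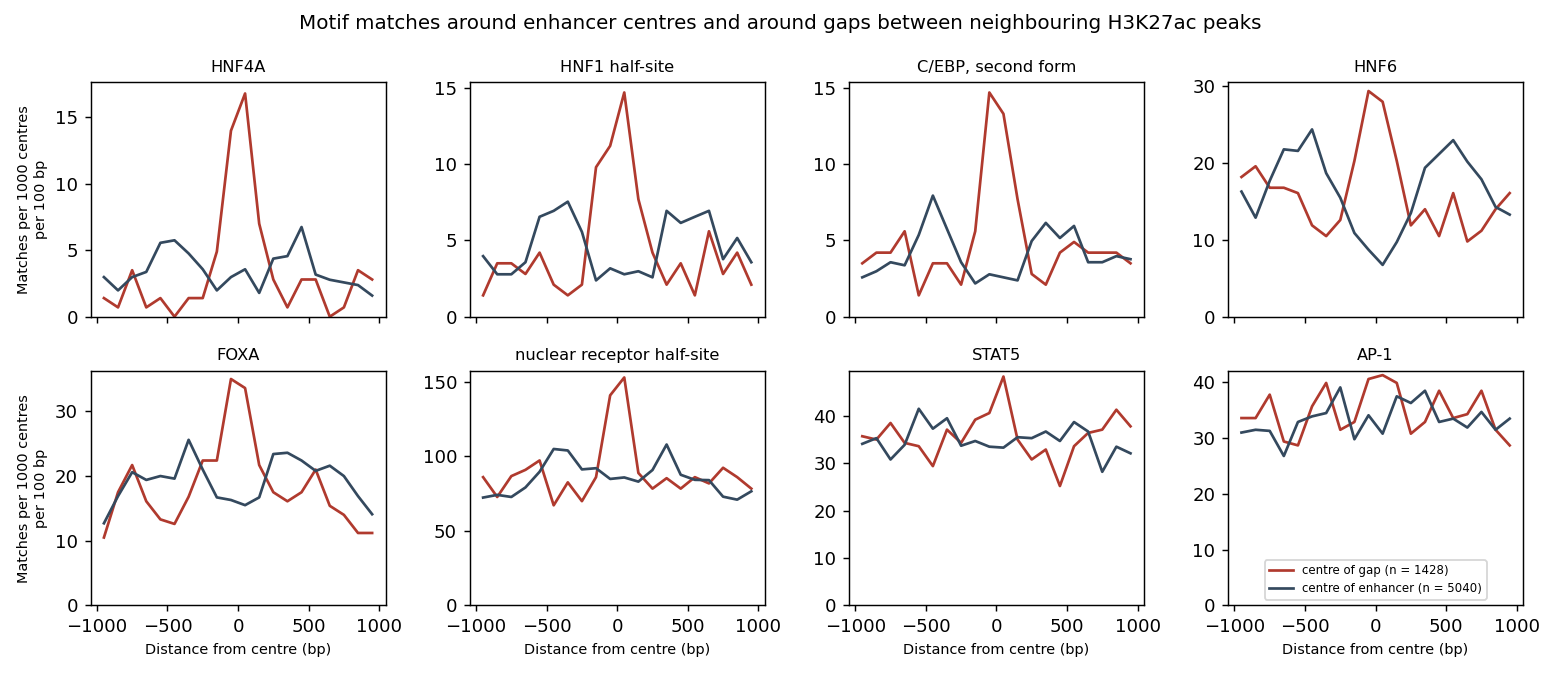
Motif matches per 1000 centres in bins of 100 bp (y) by distance from the centre in bp (x), for 1428 gaps under 1 kb between an enhancer and the next H3K27ac peak (red) and for the 5040 enhancer centres (dark blue), each panel with its own y scale from 0. HNF4A matches averaged 15.4 per 1000 gaps within 100 bp of the gap centre and 2.1 at 800 to 1000 bp, while at enhancer centres they were higher to either side (5.46 at 300 to 500 bp) than at the centre (3.27).

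The rise was narrow for HNF1 and the C/EBP form TTGTGCAA. HNF1 matches averaged 13.0 per 1000 gaps within 100 bp of the gap centre and 2.80 at 800 to 1000 bp. TTGTGCAA averaged 14.0 and 3.85. At 300 to 500 bp HNF1 averaged 2.28 and TTGTGCAA 3.33. For SP1 the rise was broader, with 57.8 within 100 bp, 28.0 at 300 to 500 bp and 16.1 at 800 to 1000 bp. Around the enhancer centres themselves HNF6 ran the other way, with 7.74 matches per 1000 centres within 100 bp, 20.9 at 300 to 500 bp and 14.2 at 800 to 1000 bp. STAT5 stood at 33.4, 37.1 and 33.8 at these distances.

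In control male liver the enhancers were narrow, with a median width of 484 bp (quartiles 345 and 678) and a range of 221 to 2150 bp. They were wider than the distal peaks that failed the rule (median 355 bp) and narrower than constant peaks near gene starts (779 bp). A wide peak meets the other lists more easily, so width is not independent of the rule. Together the enhancers covered 2.79 Mb, and 400 of them (7.94%) were 1 kb or wider.

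The same places were called wider in the other groups. The summed width of the H3K27ac peaks over an enhancer had a median of 775 bp in control female, 728 bp in KO male and 589 bp in KO female liver. Relative to control male the median ratio was 1.45, 1.37 and 1.13 in these groups, against 1.13, 1.09 and 0.970 at the constant peaks near gene starts. At the 6301 distal peaks with H3K27ac in all 4 lists but not H3K4me1 in all 4, it was 1.54, 1.39 and 1.18, so the wider calls were shared by distal peaks outside the set. In males 1184 enhancers (23.5%) were at least 2-fold wider in KO than in control and 40 at least 2-fold narrower, and in females 96 were wider and 938 (18.6%) narrower. By the rule each enhancer is 1 control male peak, whereas the KO male width sums every peak that overlaps it. A KO male peak over 2 or more enhancers, as for 321 of them, counts for each. The male difference is therefore not independent of the rule. The female difference was shared by other peaks, with medians of 750 bp in control and 553 bp in KO at the 6301 other distal peaks and 1006 and 818 bp near gene starts. The direction thus differed between the sexes, and it followed the lengths of the lists in males (28862 control and 55055 KO peaks) but not in females (48858 and 50426), whose covered length was 30.7 Mb and 26.0 Mb. At least 2-fold wider in KO of both sexes were 38 enhancers, and 14 were narrower in both. The part of depth in these widths was not tested.

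**Figure D2:**
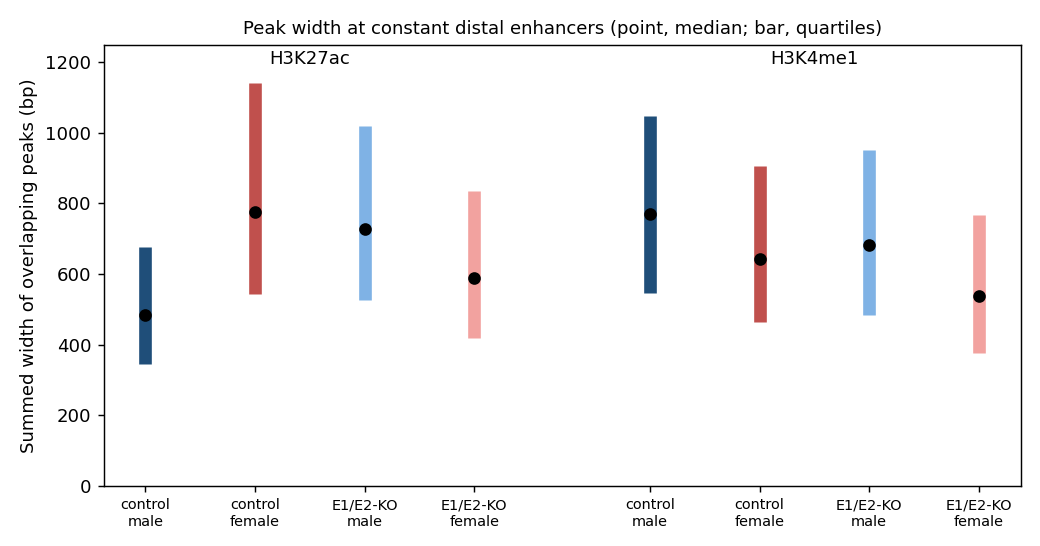
Summed width in bp (y, from 0) of the H3K27ac and H3K4me1 peaks that overlap each of the 5040 enhancers, by group (x), with points at the medians and bars from the lower to the upper quartile over enhancers. For H3K27ac the control male median of 484 bp is the lowest of the 4, whereas for H3K4me1 control male has the highest median, 771 bp.

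H3K4me1 followed another order. Its summed width over an enhancer had a median of 771 bp in control male, 642 bp in control female, 681 bp in KO male and 537 bp in KO female liver. The H3K4me1 lists ranked alike, covering 35.8, 27.6, 34.9 and 23.8 Mb of the autosomes in these groups. The part of list length in these widths was not tested. The median enhancer had 96.8%, 87.8%, 91.8% and 77.6% of its bases inside H3K4me1 peaks in these groups. Its centre lay inside an H3K4me1 peak in 89.3%, 85.1%, 86.3% and 78.4% of cases, which leaves 539 to 1088 enhancers where H3K4me1 was called only at the side. Most enhancers met 1 H3K4me1 peak, and 4.31% to 5.60% met 2 or more.

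**Figure D3:**
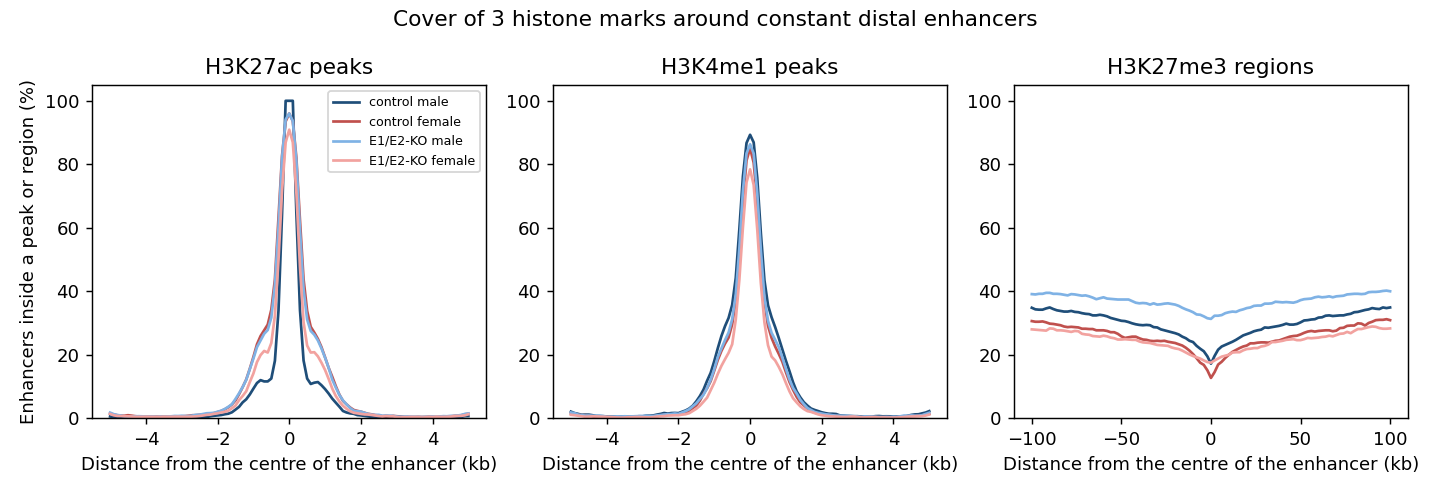
Percent of the 5040 enhancers (y) whose base at a given distance from the centre in kb (x) lies inside an H3K27ac peak, an H3K4me1 peak or an H3K27me3 region of each group, over 5 kb to each side for the first 2 marks and 100 kb for H3K27me3. H3K27ac in control male is at 100% at the centre by construction, and the H3K27me3 lines are lowest at the centre, at 17.2%, 12.7%, 31.3% and 17.5% in control male, control female, KO male and KO female liver.

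The 5 widest enhancers kept most of their H3K27ac width in every list. The widest, near Hsd17b12 (a 3-ketoacyl-CoA reductase of fatty acid elongation), was 2150 bp in control male, 2130 bp in control female, 1806 bp in KO male and 1864 bp in KO female liver. The next was in an exon near Dclre1b, a nuclease of telomere maintenance, with 2108, 2170, 2132 and 1613 bp. The others were in an intron near Bace1 (the beta-secretase), upstream of Jmjd1c (a putative histone demethylase), and in an intron near Vac14 (a scaffold of the lipid kinase PIKfyve), at 2052, 2027 and 1969 bp in control male and 1841, 2128 and 1374 bp in KO female liver. H3K4me1 over the Hsd17b12 region was narrow by comparison, with 565, 266, 535 and 428 bp in the 4 groups.

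By position 2189 enhancers (43.4%, interval 42.1 to 44.8) had their centre in an intron of a protein-coding gene, 274 (5.44%, 4.84 to 6.1) in an exon and 2577 (51.1%, 49.8 to 52.5) between genes. The distal peaks that failed the rule were more often in introns, 51.5% (50.5 to 52.4), and less often between genes, 43.7% (42.8 to 44.7). The median distance from the centre to the nearest gene start was 32371 bp (quartiles 15417 and 73947), and 333 enhancers (6.61%) were 200 kb or more away. Of the 2463 enhancers inside a gene, 910 (36.9%) were inside a gene other than the one with the nearest start, so assignment to the nearest start is a label of position and not of the target.

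Assigned to the nearest start, the enhancers fell to 3328 of the 21281 autosomal protein-coding genes (15.6%). Of these, 371 genes (1.74%) had 3 or more and 66 had 5 or more. The 66 became 16 with at least 50% of the peak covered in every list. They became 125 without the need for H3K4me1 in KO female liver. These 371 genes held 27.5% of all enhancers. Such genes had more room around them, with a median of 216 kb of genome nearest to their start against 46.7 kb for all genes, so numbers per 100 kb of that territory are given for the leading genes and for each gene list. Over all autosomes there were 0.204 enhancers per 100 kb.

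Mkl2, which encodes a coactivator of serum response factor, led with 11 enhancers (3.94 per 100 kb). Joined where at most 1 kb apart they formed 9 stretches, 15452 to 156209 bp from the Mkl2 start. The widest of them was 929, 1119, 1058 and 919 bp in the H3K27ac lists of control male, control female, KO male and KO female liver, and 405, 1021, 212 and 708 bp in the H3K4me1 lists. None of the 11 lay in an H3K27me3 region of either control or of KO female liver, and 5 lay in one of KO male liver, all of them upstream of the gene.

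Pik3r1, the regulatory subunit of phosphoinositide 3-kinase, had 9 (1.75 per 100 kb), all of them upstream between 16942 and 256128 bp from its start and none under H3K27me3 in any list. Irs2, an adaptor of the insulin receptor, had 6 (3.12 per 100 kb), again all upstream. Slc38a2, a carrier of neutral amino acids, had 6 (2.91 per 100 kb).

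Zbtb20, a zinc finger repressor known for silencing Afp after birth, had 9, all inside its own introns, but over a territory of 1034 kb (0.870 per 100 kb). Its widest enhancer was 1273, 1175, 1169 and 428 bp in the H3K27ac lists of control male, control female, KO male and KO female liver, so that the KO female call was the narrow one. Hdac4, a class IIa histone deacetylase, had 8 (1.80 per 100 kb), 6 of them inside the gene. Chd7, a chromatin remodeller, had 7 (1.91 per 100 kb).

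The other genes of the 20 with most enhancers have various roles. Vps13d (a lipid transfer protein) and Lpp (a LIM domain protein of cell adhesion) had 8 each, at 2.79 and 1.23 per 100 kb. Rhou (a small GTPase), Ptplb (a dehydratase of fatty acid elongation) and Etnk1 (ethanolamine kinase) had 7 each, at 4.88, 3.42 and 0.832 per 100 kb. The 7 assigned to Rhou were all in introns of Gm20388. With 6 each followed Asb2, Corin, Snx10, Mocs1, Ly86, Fggy, Nrn1 and Dynlrb2. From Corin on, in this order, the density was 3.07, 2.21, 1.90, 1.65, 1.31, 1.29 and 1.17 per 100 kb. Asb2, part of a ubiquitin ligase, was the densest of the 20 with 8.19 per 100 kb, and Etnk1 the sparsest. The annotation holds Zbtb20, Vps13d and Hdac4 as 2 gene records each, which were counted together.

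Gene lists of liver biology, written with earlier results of these data known, were set against all genes, of which 15.6% had an enhancer at 0.204 per 100 kb. Of the growth hormone signalling genes 11 of 18 (61.1%, 0.641 per 100 kb) had at least 1, among them the receptor Ghr with 2, its kinase Jak2 with 2 and Igfbp2, an insulin-like growth factor binding protein, with 2. None of the 18 had 3 or more, and Igf1, with 7 distal peaks in all 4 H3K27ac lists, and Cish had none. With at least 50% of the peak covered in every list, 7 of the 18 had an enhancer. Of the circadian clock genes 9 of 18 (50%, 0.549 per 100 kb) had an enhancer, with 3 each at Bhlhe40 and Hlf and 2 at Nfil3 and Rora. Of the gluconeogenesis and glycogen genes 9 of 20 (45%, 0.433 per 100 kb) had an enhancer and 4 had 3 or more, namely Irs2 (6), Ppargc1a, a coactivator of gluconeogenic genes (6), Ppp1r3b (5) and Ppp1r3c (3), the last 2 being subunits that target a phosphatase to glycogen.

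Hepatocyte transcription factors had an enhancer in 10 of 24 cases (41.7%) and 3 or more in 4 (16.7%), against 1.74% of all genes, and at 0.625 per 100 kb, against 0.204. The 4 were Zbtb20, Onecut1 (HNF6, with 5), Bcl6 (4) and Nr5a2 (4), whose territories of 231 to 1034 kb compare with a median of 46.7 kb for all genes. As a share of the distal H3K27ac peaks near the list the enhancers were fewer than over all genes, 22.5% of 142 against 31.7%. Hnf4a and Cebpa had none, although 4 and 3 distal peaks near them were in all 4 H3K27ac lists. Of the apolipoprotein and lipoprotein genes 8 of 20 (40%) had an enhancer, with 5 at Apob and 3 at Apoa1, and the list had 0.861 per 100 kb, the highest of the 18 lists. Of the 50 distal H3K27ac peaks near it 32.0% were enhancers, close to the 31.7% over all genes. The 3 enhancers assigned to Apoa1 were in introns, 12059 to 78630 bp upstream of its start. They had H3K27ac widths of 549, 676 and 659 bp in control male and 864, 665 and 1023 bp in KO female liver. None lay under H3K27me3.

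Lipogenesis and fatty acid oxidation genes had an enhancer in 9 of 25 cases (36.0%, 0.614 per 100 kb), led by Elovl6 with 3 and Fasn with 2. Cytochrome P450 and conjugation genes had one in 8 of 25 (32.0%, 0.656 per 100 kb), led by Aldh1a1 with 3 and by Cyp27a1, Cyp3a11 and Cyp7b1 with 2. Amino acid and urea cycle genes had one in 5 of 19 (26.3%), Agxt, Cps1, Gldc, Hgd and Hpd, but their 0.203 per 100 kb was that of all genes. Bile acid and membrane transport genes had one in 5 of 20 (25%, 0.526 per 100 kb), with 4 at the amino acid carrier Slc38a4. Sex-biased liver genes had one in 8 of 38 (21.1%, 0.301 per 100 kb), with 4 at Bcl6, 3 at Hao2 and 2 at Cyp7b1 and Trim24. Ribosomal protein genes had one in 6 of 30 (20%, 0.588 per 100 kb), with 2 at Rpl5.

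Secreted plasma proteins, the main products of hepatocytes, had an enhancer in 3 of 29 cases (10.3%), at 0.229 per 100 kb, close to the 0.204 of all genes. Gc had 2, Ambp 1 and Apoh 1. The count is small and was 5 with control female peaks as the source or without the need for H3K4me1 in KO females, and 1 when genes were assigned by their span. Alb had 8 control male H3K27ac peaks nearest to its start, 7 of them distal and 5 of these in all 4 H3K27ac lists, but none had H3K4me1 in all 4 lists. Over the whole list 27 distal peaks were in all 4 H3K27ac lists and 4 of 41 distal peaks (9.76%) were constant enhancers, against 31.7% of all distal peaks. Over the other 17 lists this share ran from 13.9% for amino acid and urea cycle genes to 70% of 10 distal peaks for ribosomal protein genes.

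**Figure D4:**
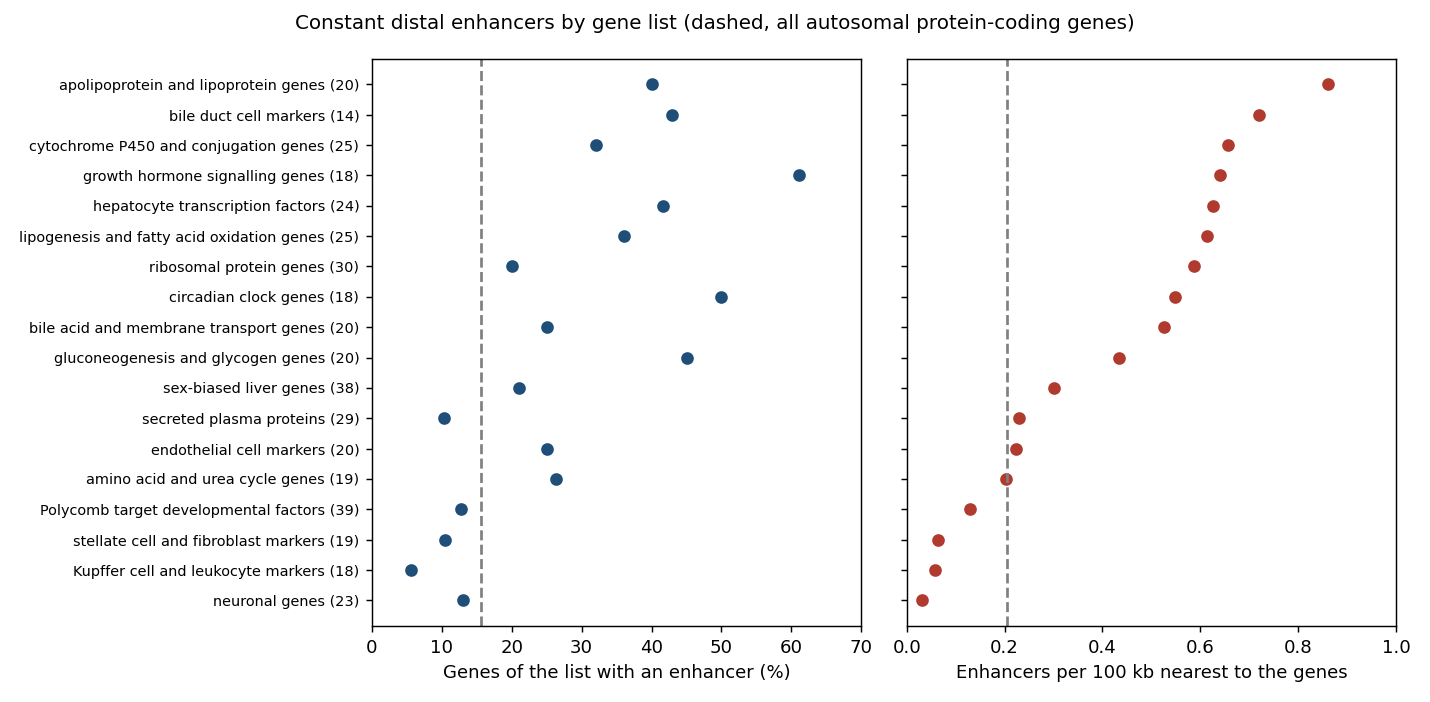
For 18 gene lists (rows, with the number of autosomal genes), the percent of genes with at least 1 constant distal enhancer (left x) and the number of enhancers per 100 kb of genome nearest to the genes (right x). Dashed lines mark all autosomal protein-coding genes, at 15.6% and 0.204, and 12 of the lists lie right of both.

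Markers of other cells of the liver lay on both sides of all genes. Of the stellate cell and fibroblast markers 2 of 19 (10.5%, Dcn and Reln) had 1, at 0.0648 per 100 kb. Of the Kupffer cell and leukocyte markers 1 of 18 did (5.56%, Ptprc), at 0.0579, and of the neuronal genes, which liver should lack, 3 of 23 (13.0%, Grin2a, Rbfox1 and Rbfox3), at 0.0319. The defining genes Clec4f, Cd68, Csf1r, Acta2, Col1a1 and Lrat had none. Endothelial markers had one in 5 of 20 cases (25%, 0.224 per 100 kb), with 3 at Lyve1 and 1 each at Cdh5, Erg, Gata4 and Kdr, while Stab2 and Pecam1 had none. The 3 assigned to Lyve1 were in introns, 19238 to 30916 bp upstream of its start. Bile duct markers had one in 6 of 14 (42.9%, 0.719 per 100 kb), with 5 at Onecut1, 4 at Sox9 and 3 at Aqp1, and Onecut1 is a hepatocyte factor as well. Krt7 and Krt19, which define the bile duct, had none. In whole liver, marks of a rare cell type and a weak mark in hepatocytes cannot be told apart. Polycomb target developmental factors had an enhancer in 5 of 39 cases (12.8%, 0.130 per 100 kb), with 4 at Gata6, 2 at Gata3 and 2 at Tbx20, and none at others such as Hoxa9, Pax6 and Nkx2-5.

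Most enhancers were alone. The median gap between neighbours on a chromosome was 130431 bp (quartiles 32316 and 434189). Chained at gaps of at most 12500 bp, 1374 of the 5040 (27.3%) fell into 643 clusters, and 14.7% were in clusters when H3K27ac peaks within 1 kb were merged first. Of the 10843 distal peaks that failed the rule, which are more numerous, 49.4% fell into clusters by the same distance. Of the 643 clusters 570 had 2 enhancers, 63 had 3, 5 had 4 and 5 had 5. The median cluster spanned 1.84 kb, and 81 of them (12.6%) held another control male H3K27ac peak between the enhancers.

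Close pairs were of 2 kinds. Of the gaps, 76 were under 200 bp, 246 were 200 to 500 bp, 77 were 500 to 1000 bp, 18 were 1 to 2 kb and 18 were 2 to 5 kb, while 107 were 7.5 to 10 kb and 84 were longer than that within the chaining distance. A low count in between was also in the lists as deposited. The whole control male H3K27ac list had 647 gaps of 1 to 2 kb, 259 of 2 to 3 kb and 288 of 3 to 4 kb, against 1845 over the 2.5 kb from 5 to 7.5 kb. In the control male H3K4me1 list the dip was shallower, with 3836, 2058, 1835 and 6770 in the same bins. Pairs under 1 kb apart were often 1 peak elsewhere, since 430 enhancers lay in pairs or more under a single H3K27ac peak of control female liver, 321 in KO male and 237 in KO female liver. With enhancers at most 1 kb apart joined, 4641 stretches remained. Distal peaks next to an enhancer within 12500 bp were enhancers of the set in 38.9% of 3351 cases, against 25.3% of 8095 for distal peaks next to one that failed the rule.

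The 10 clusters with most enhancers spanned 10.3 to 30.5 kb. Those with 5 were upstream of Degs1 (dihydroceramide desaturase, 30.5 kb), near 2310044G17Rik and 6430527G18Rik (27.4 kb), in Asb2 (22.5 kb), near Tmem57 (19.5 kb), and near Rhou (15.5 kb). Those with 4 were near Pik3r1 (23.4 kb), Nsd1 and Fgfr4, the receptor of bile acid feedback in hepatocytes (19.6 kb), Slc25a37, the mitochondrial iron importer (11.8 kb), Sik1, a salt-inducible kinase (11.3 kb), and Dnase1l3 (10.3 kb). No enhancer of the Degs1, Tmem57, Pik3r1, Slc25a37 and Dnase1l3 clusters lay under H3K27me3 in any list. In the Rhou cluster 0 of 5 did in control male, 3 in control female and all 5 in both KO livers, and in the Sik1 cluster 3 of 4 did in KO male liver alone.

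Overlap with H3K27me3 was not used by the rule. In control male liver 889 of the 5040 enhancers (17.6%, interval 16.6 to 18.7) overlapped an H3K27me3 region, beside 15.7% of all autosomal control male H3K27ac peaks. In control female liver 661 did (13.1%, 12.2 to 14.1), beside 13.1% of all peaks. In KO male liver 1627 did (32.3%, 31.0 to 33.6), beside 29.5%, and in KO female liver 900 (17.9%, 16.8 to 18.9), beside 16.8%. The shares of the enhancers were thus close to those of all peaks, which include peaks near gene starts, and the higher share in KO male liver was shared by all peaks. They were above those of the 6301 distal peaks with H3K27ac in all 4 lists but not H3K4me1 in all 4, which were 10.2% (9.51 to 11), 8.24% (7.58 to 8.94), 29.2% (28.1 to 30.4) and 14.4% (13.6 to 15.3) in the same order of groups. Among the 10843 distal peaks that failed the rule 1357 overlapped in control male liver, and 10.3%, 27.3% and 14.4% in the other groups in the same order, and among constant peaks near gene starts the shares were 25.8%, 23.0%, 35.9% and 21.5%.

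**Figure D5:**
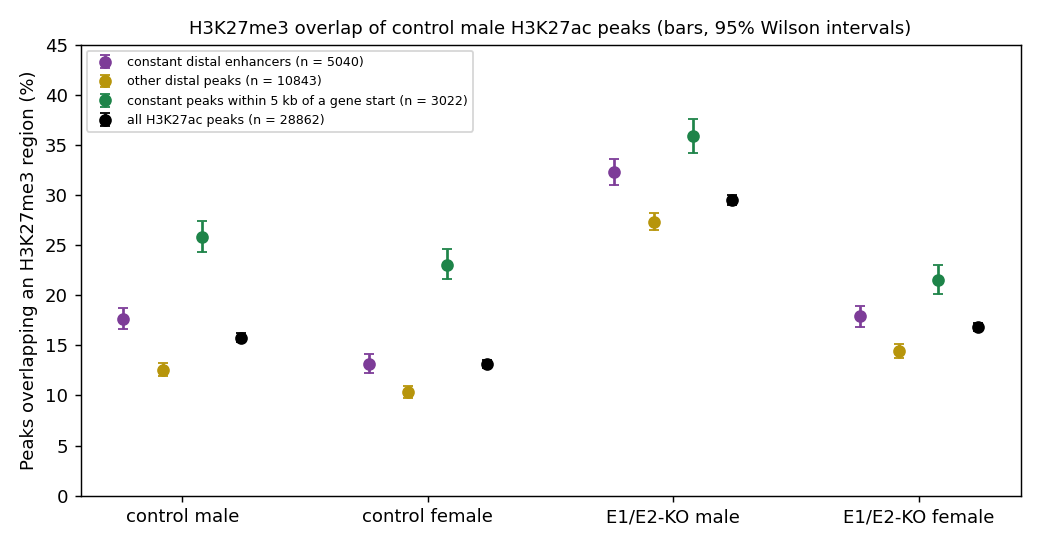
Percent of control male H3K27ac peaks that overlap an H3K27me3 region (y, from 0) in each of the 4 groups (x), for the 5040 enhancers, 10843 other distal peaks, 3022 constant peaks within 5 kb of a gene start and all 28862 peaks, with 95% Wilson intervals. In each set the KO male share is the highest of the 4, 32.3% for the enhancers.

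Set against the cover of the genome, the enhancers lay away from H3K27me3 in 3 of the 4 lists, as did H3K27ac peaks in general. Of their bases 15.4% were inside regions in control male liver, where 31.0% of the autosomes were, a ratio of 0.497. The ratio was 0.450 in control female (11.5% of bases against 25.5%), 0.655 in KO female (16.8% against 25.6%) and 1.01 in KO male liver (30.5% against 30.3%). Of the bases of all control male H3K27ac peaks 13.4%, 11.1%, 27.2% and 15.2% were inside regions of control male, control female, KO male and KO female liver, slightly less than of the enhancers in each list. Around the enhancers the control male share rose from 17.2% at the centre to 26.6% at 20 kb and 34.8% at 100 kb, and the control female share from 12.7% to 23.3% and 30.8%. In KO male liver it rose from 31.3% to 35.2% and 39.5%, and in KO female liver from 17.5% to 21.9% and 28.1%. The dip at the enhancers was thus shallower in both KO lists than in the control list of the same sex.

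Where an enhancer overlapped a region it was nearly always wholly inside, in 96.5%, 95.6%, 94.6% and 96.0% of cases in control male, control female, KO male and KO female liver. The regions were broad, with a median width of 56800 bp in control male liver when they held an enhancer and 30400 bp for all regions. The median enhancer under H3K27me3 lay 11361 bp from the nearer edge of its region in control male and 7619 bp in KO female liver.

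Between genotypes calls went both ways. In males 987 enhancers (19.6%) were under H3K27me3 in KO and not in control liver, beside 18.1% of all peaks, and 249 (4.94%) in control and not in KO liver, beside 4.33%. In females 495 (9.82%) were under it in KO only, beside 8.84%, and 256 (5.08%) in control only, beside 5.11%. Of the enhancers under H3K27me3 in controls, 28.0% in males and 38.7% in females had no region in KO liver, beside 27.5% and 39.1% of all peaks under it in controls. Over the 4 lists 3060 enhancers (60.7%) were in no region, beside 64.2% of all peaks, and 318 (6.31%) in a region of all 4, beside 6.5%. The commonest single pattern among the rest was KO male only, with 576 (11.4%), beside 10.3%. Enhancers between genes overlapped more often than those in introns, with 22.0% against 12% in control male and 39.8% against 23.4% in KO male liver, and those in exons were at 21.2% and 32.1%. All control male H3K27ac peaks had the same order between genes and in introns, with 19.1% against 11.7% and 36.2% against 24.1%, and their exon shares were 20.6% and 31.0%.

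The 318 enhancers under H3K27me3 in all 4 lists were near 292 genes. Cxcr4, a chemokine receptor, and Tmem180 had 3 each. The 3 near Cxcr4 lay 233834 to 240115 bp upstream, with H3K27ac widths of 429, 436 and 546 bp in control male and 460, 417 and 495 bp in KO female liver. The 3 near Tmem180 lay in introns, 7592 to 15936 bp from its start. With 2 each, and first by name, were Acoxl, Banp, Cd82, Clvs1, the receptor kinases Ephb3 and Fgfr3, and the transcription factors Fosb and Foxp4. The widest near these 10 genes was the 1477 bp enhancer nearest to Banp, printed above, whose H3K27ac width was 2098 bp in control female, 1830 bp in KO male and 1315 bp in KO female liver.

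Calls that changed the same way in both sexes were fewer. Under H3K27me3 in both control lists and in neither KO list were 75 enhancers (1.49%, beside 1.72% of all peaks) near 69 genes, with 2 each near Cstad, Ets1, Glis2, Mrps12 and Ptprm among others. The Ets1 pair, near an ETS transcription factor of lymphoid and endothelial cells, had H3K27ac widths of 439 and 293 bp in control male, 472 and 614 bp in control female, 644 and 582 bp in KO male and 459 and 618 bp in KO female liver. Under it in both KO lists and in neither control list were 314 (6.23%, beside 5.99% of all peaks) near 266 genes, with 3 each near A430107O13Rik, Rhou, Vegfa and Zmiz1. The 3 near Vegfa, which encodes an endothelial growth factor, lay 59329 to 74495 bp downstream of its start and were 325, 574 and 615 bp wide in the control male H3K27ac list.

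Members of the gene lists gave further examples. All 3 enhancers near Hao2, a female-biased peroxisomal hydroxyacid oxidase, lay under H3K27me3 in control male liver and none did in the other 3 lists. Their H3K27ac widths were 259, 352 and 327 bp in control male and 1037, 1212 and 1212 bp in control female liver, where the last 2 lay under the same peak. In KO male liver the widths were 427, 1105 and 1105 bp, and in KO female liver 332, 677 and 259 bp. Of the 6 near Irs2, 5 lay under H3K27me3 in control male, 2 in control female, 6 in KO male and 5 in KO female liver. Of the 6 near Ppargc1a, 3 did in control male, none in control female, 1 in KO male and none in KO female liver. By list, of the 32 near hepatocyte transcription factors 2, 1, 5 and 5 did in control male, control female, KO male and KO female liver, beside 17.6%, 13.1%, 32.3% and 17.9% of all enhancers. The lists varied, with 10, 3, 14 and 8 of the 26 near gluconeogenesis and glycogen genes and 2, 4, 8 and 4 of the 15 near circadian clock genes. Of the 15 near sex-biased liver genes 4, 0, 2 and 1 did.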

How the data were processed

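The series holds 47 liver ChIP-seq samples. The authors concatenated the reads of the libraries of a group and mapped them to mm9 with Bowtie2 (version 2.3.2). H3K27ac and H3K4me1 peaks were called with MACS2 (version 2.1.1) and H3K27me3 regions with SICER (version 1.1), and the deposited lists give chromosome, start, end and name alone. Starts are printed counted from 1, and 1 base was added to SICER ends, which then fall on multiples of 400 bp. Overlaps, gaps and distances were computed in Python 3 with NumPy and SciPy on the NCBIM37 genome (mm9), whose chromosomes contain every peak, and GENCODE M1 protein-coding genes. The interval and motif functions were tested on simulated data. Peaks were assigned to the nearest gene start from their centre. Named genes were the 20 with most enhancers, the leaders of each gene list, the 10 largest clusters, the 5 widest enhancers and the leaders under each H3K27me3 pattern. Of the 422 gene names in the lists, 411 matched an autosomal gene. The members and lists were chosen with earlier results of these data known. Peaks on sex chromosomes were left out. Some items are not reported here.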

Additional observations from a re-analysis of the deposited data

How the results depend on the processing

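With at least 50% of the peak covered in every list, 2981 enhancers remained, with a median width of 426 bp, 16 genes had 5 or more instead of 66, and 19.0% were in clusters. With control female peaks as the source, the median width was 772 bp and 23.0% were in clusters. With H3K27ac peaks within 1 kb merged first, the median width was 686 bp and 14.7% were in clusters. Without the need for H3K4me1 in KO female liver, 125 genes had 5 or more and 32.5% were in clusters. With every transcript start counted, 41.4% were in introns. With gaps of 5 kb and 25 kb, 17.1% and 38.7% were in clusters. The share of enhancers overlapping H3K27me3 stayed within its counting interval in each group under every setting tried, including at least 50% of the enhancer inside regions and regions of 10 kb or more alone. For the gene lists, 125 of 144 counts stayed within 1.5 times the first count, and 19 moved. With every gene start within 50 kb counted, amino acid genes went from 5 to 9, P450 genes from 8 to 13, transport genes from 5 to 9, ribosomal protein genes from 6 to 13, Kupffer cell markers from 1 to 2, neuronal genes from 3 to 0 and Polycomb targets from 5 to 3. With 50% coverage, growth hormone genes went from 11 to 7, lipogenesis genes from 9 to 5, ribosomal protein, transport, endothelial and Polycomb target genes to 3 each and stellate cell markers from 2 to 1. By gene span, ribosomal protein genes went to 3, and secreted plasma proteins had 1 to 5 over all settings. Motif shares in the central 150 bp were 0.455 to 0.667 times those in 300 bp, as a shorter window implies. A stricter score was not run, since the lists hold none. No paired analysis was possible because peaks were called on pooled livers, and for the same reason no liver could be left out. The gap windows were chosen after seeing the data.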

Other observations

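Constant distal enhancers were spread over all 19 autosomes at uneven density. Chromosome 19 had 2.97 per Mb and chromosome 11 had 2.66, against 1.51 on chromosome 3 and 1.68 on chromosome 14. Per 100 protein-coding genes the order was another, with 34.0 on chromosome 18 and 12.8 on chromosome 7. As a share of the control male H3K27ac peaks of a chromosome they ranged from 14.9% on chromosomes 7 and 11 to 19.9% on chromosome 13.

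Among genes with 3 or more enhancers, some that the counts above do not name were dense for their territory. Mustn1 had 3 enhancers at 9.85 per 100 kb and Gprc5c, an orphan receptor, 4 at 8.78, and none of these lay under H3K27me3 in any list. Ddx58, which encodes the RNA sensor RIG-I, had 5 at 7.89 per 100 kb, also none under H3K27me3. Otub1, a deubiquitinase, had 4 at 7.15, of which 4 lay under H3K27me3 in control male, 1 in control female, 4 in KO male and 2 in KO female liver. These genes were chosen after their values were seen.

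Wider enhancers overlapped H3K27me3 less often in controls, as did wider H3K27ac peaks in general. Among enhancers of 221 to 345 bp in control male liver 21.5% lay under it in control male and 15.3% in females, and among those of 678 to 2150 bp 13.8% and 10.3% did. For all control male H3K27ac peaks of these widths the shares in control females were 15.4% and 10.1%. For the enhancers the shares in KO male liver were 33.3% and 29.6%, and in KO female liver 19.6% and 16.2%.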
